A study of Mus musculus with 12 samples.

Results

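Expression of 10 core circadian clock genes was followed in mouse hippocampal slices after chemical induction of long-term potentiation (LTP), a lasting strengthening of synapses. The genes were taken by name, and the gene identifiers of the count tables were matched to symbols with the GENCODE M21 annotation. They were Per1, Per2, Per3, Cry1, Cry2, Arntl, Clock, Nr1d1, Nr1d2 and Dbp, 10 of 41091 genes listed. All 10 were counted in every library, with no fewer than 514 counts, and all 10 passed the filter on low counts in every comparison. In GENCODE M21 (GRCm38) the Period genes and Cry1 lie at chr11:69095217-69109960 (Per1, plus strand), chr1:91415982-91459324 (Per2, minus strand), chr4:151003652-151044665 (Per3, minus strand) and chr10:85131700-85185064 (Cry1, minus strand), and all are protein coding.

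The molecular clock is a loop of transcription and repression. The proteins of Arntl (also named Bmal1) and Clock pair, bind E-box sequences and activate the Period and Cryptochrome genes, whose products then inhibit that pair. The REV-ERB nuclear receptors encoded by Nr1d1 and Nr1d2 repress Arntl, and Dbp carries the rhythm to genes with D-box sequences. In the hippocampus the loop is known to run in neurons and glia, and Per1 is also a known target of cyclic AMP and the transcription factor CREB.

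The slices came from wild-type C57BL/6 mice, 2 to 3 months old, and the dentate gyrus had been trimmed away before a recovery in chambers perfused with artificial cerebrospinal fluid. LTP slices received 50 uM forskolin, which raises cyclic AMP, for 5 min, and then forskolin with 30 mM KCl and 10 mM calcium, 10 min in all. Controls were slices of the same animals given vehicle (0.2% DMSO) over 10 min. Freezing followed 1 hr or 3 hr later, which gave 4 groups of 3 libraries of total RNA without ribosomal RNA (1 hr control, 1 hr LTP, 3 hr control, 3 hr LTP). As a model, this stimulus is a drug and high-potassium treatment of whole slices, not of a defined synapse, and the libraries were made from slices in which Arc had risen by PCR. The rise of Arc in LTP slices (log2 fold change 1.99, SE 0.0839, at 1 hr and 1.30, SE 0.0594, at 3 hr) is therefore a condition of entry and no finding. The hour of day of each dissection was not given in the sources used here, and slices frozen at different times were taken to come from different animals. When 3 hr is set against 1 hr, time after LTP, time in the chamber, time of day and animal thus cannot be told apart. LTP and control slices of 1 time point share all of these. In the fits this does not hold for animal 2 at 1 hr, whose control library was left out.

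Libraries held 37118382 to 50815001 counts. The second 1 hr control library was left out of the fits, after the study's own exclusion, so the 1 hr control group has 2 libraries in the comparisons. On the first principal component (50.5% of the variance) it scored -6.49, while scores of the remaining 1 hr libraries ran from -29.7 to -19.6 and those of the 3 hr libraries from 10.6 to 33.0. Markers of neurons and of CA1 and CA3 pyramidal cells were abundant. The dentate granule cell marker Prox1 was also present, at a normalized count (CPM, scaled to library size) of 45.9 to 79.8, in spite of the trimming. Of the choroid plexus markers, Ttr was at 0 to 2.22 CPM and Kl at 21.5 to 28.4 CPM in the fitted libraries. In whole slices, fewer cells of a type and less RNA per cell cannot be told apart.

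Promoter sequences are shown for Per1, called with LTP at both times, for Cry1, with the largest change between control slices of the 10 clock genes, for Per3, called between the times and with D-boxes in its window, and for Ciart, a repressor of the Arntl and Clock pair from a wider list of clock genes, because it had the largest rise with LTP at 1 hr among the repressors of that list. Cry2, also called between the times, is not shown. The D-boxes of Per3 were thus part of the choice and are no finding. The sequences are the 250 bases before a RefSeq start site (GRCm38.p6), read 5′ to 3′ on the gene's strand, with searched motifs in capitals. The search covered both strands of 250 bases before to 50 bases after each start for the E-box CACGTG, the short cyclic AMP response element TGACG, its full palindrome TGACGTCA, which contains the short element, the D-boxes TTATGTAA and TTACGTAA, and the ROR/REV-ERB element. Of the 10 clock genes 9 had an entry, with 13 start sites. Per2 had none.

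The windows of both Per1 starts lie within the annotated Per1 span. The first (chr11:69098699-69098948, plus strand), which holds 1 exonic base, has an E-box at -166 and a short element at -246, counted from the start:
Per1 start 1: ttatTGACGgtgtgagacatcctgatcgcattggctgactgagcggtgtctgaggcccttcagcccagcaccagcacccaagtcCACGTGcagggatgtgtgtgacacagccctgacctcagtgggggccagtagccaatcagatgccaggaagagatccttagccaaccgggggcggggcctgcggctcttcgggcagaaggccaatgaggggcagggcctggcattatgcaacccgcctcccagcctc
The second lies in a Per1 intron of GENCODE M21 (chr11:69099902-69100151, plus strand), and has a short element at -132:
Per1 start 2: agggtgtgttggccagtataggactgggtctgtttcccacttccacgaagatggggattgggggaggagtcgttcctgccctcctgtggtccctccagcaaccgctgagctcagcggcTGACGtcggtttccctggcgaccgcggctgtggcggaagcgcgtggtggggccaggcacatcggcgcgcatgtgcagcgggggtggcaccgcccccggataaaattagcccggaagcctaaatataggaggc
The Cry1 window (chr10:85185055-85185304, minus strand), of which the last 10 bases are annotated as Cry1 exon, has an E-box at -60 and, within that exon, a short element at -8:
Cry1: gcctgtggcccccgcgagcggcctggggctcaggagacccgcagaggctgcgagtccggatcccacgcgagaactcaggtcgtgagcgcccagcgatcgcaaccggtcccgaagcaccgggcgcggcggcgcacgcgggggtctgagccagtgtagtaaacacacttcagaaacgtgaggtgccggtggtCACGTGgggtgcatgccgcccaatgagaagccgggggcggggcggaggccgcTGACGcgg
The Per3 window (chr4:151044666-151044915, minus strand), which lies within the annotated span of Camta1, has D-boxes at -205 and -158:
Per3: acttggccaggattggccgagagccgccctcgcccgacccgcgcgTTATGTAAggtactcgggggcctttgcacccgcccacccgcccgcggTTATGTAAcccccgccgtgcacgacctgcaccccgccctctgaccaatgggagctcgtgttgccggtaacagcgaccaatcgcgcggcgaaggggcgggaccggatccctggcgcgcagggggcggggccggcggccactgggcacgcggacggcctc
The Ciart window (chr3:95882229-95882478, minus strand), of which 23 bases are annotated as Ciart exon, has 3 E-boxes, at -116, -58 and -44:
Ciart: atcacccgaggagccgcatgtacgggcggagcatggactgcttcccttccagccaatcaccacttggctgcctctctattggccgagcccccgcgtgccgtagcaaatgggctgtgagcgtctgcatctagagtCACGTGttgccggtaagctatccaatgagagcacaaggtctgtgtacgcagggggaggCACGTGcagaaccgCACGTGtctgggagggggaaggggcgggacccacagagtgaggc

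Among 32851 promoter windows of the same length, 7.15% held the E-box, 20.8% the short element, 1.79% the full cyclic AMP response element, 1.06% a D-box and 0.384% the ROR/REV-ERB element. The short element was also found in Cry2, at -209, and the ROR/REV-ERB element in Arntl, 27 bases into the second of its start sites. None of the 13 windows held the full element. No searched motif was found for Clock, Nr1d1, Nr1d2 and Dbp in these windows. A match is only a string of letters, and binding was not measured.

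Levels were compared between genes as CPM per kilobase of annotated exon, over the 12 libraries. Nr1d2 was highest (21.6 ± 1.59, SD, n = 12 libraries), followed by Cry2 (20.0 ± 3.33), Per1 (12.8 ± 3.13), Clock (10.5 ± 0.675) and Per2 (10.5 ± 2.47). Dbp (9.63 ± 1.32), Arntl (8.17 ± 0.636), Nr1d1 (6.73 ± 1.22), Cry1 (6.54 ± 1.71) and Per3 (4.28 ± 0.791) were lower. The ranges of every pair of neighbours in this order overlapped. The order also differed between groups, since in 3 hr LTP slices Cry2 (23.6) was above Nr1d2 (19.9), and in 1 hr controls Clock (11.3) and Dbp were above Per1 (9.07). It depends on the length used, which here includes untranslated exons. The study's text speaks of reads in coding regions, while the tables also count 9941 genes with no annotated coding region, and whether reads of untranslated exons were counted was not tested. Per kilobase of coding sequence the order was Cry2 (71.3 ± 11.9, SD, n = 12 libraries), Nr1d2 (67.7), Clock (56.2), Arntl (32.3), Dbp (29.6), Per1 (18.4), Per2 (16.3), Cry1, Per3 (11.8) and Nr1d1 (11.2). The genes varied to unequal degrees across libraries. Cry1, Per1 and Per2 had the largest coefficients of variation (26.1%, 24.5% and 23.6%) and Clock, Nr1d2 and Arntl the smallest (6.43%, 7.33% and 7.79%). The repressors of the Period and Cryptochrome families therefore spanned more of a range than the activators they inhibit. Part of the exons of some genes lies opposite another gene, 18.0% of Dbp bases (Sphk2), 8.55% of Nr1d1 (Thra), 4.67% of Cry2 (D930015M05Rik) and 0.439% of Arntl (Gm45355). The use of strand in counting is not given in the sources used here, so counts of these genes may include reads of their partners.

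**Figure D1:**
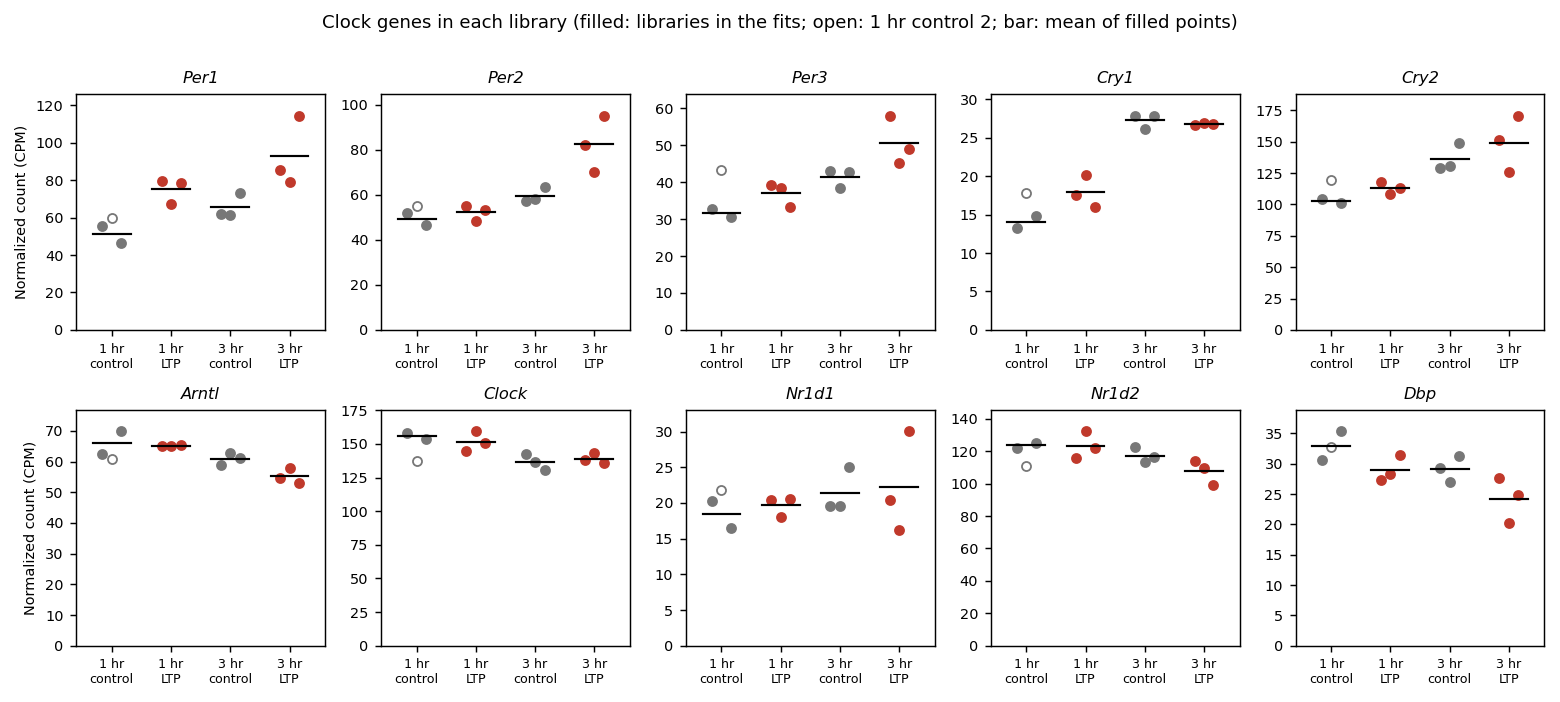
Normalized count (CPM, linear axis from 0) of the 10 clock genes in each of the 12 libraries. Grey points are control and red points LTP libraries, the open point is the 1 hr control library left out of the fits, and bars are means of the filled points. Per1 was higher in LTP slices at both times, Per2 at 3 hr, and Cry1 was higher in all 3 hr libraries (26.2 to 27.9 CPM) than in all 1 hr libraries (13.3 to 20.2 CPM).

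LTP was first compared with time-matched control at 1 hr, which asks which clock genes differ soon after the stimulus. A gene was called where its Benjamini-Hochberg adjusted p by edgeR's quasi-likelihood test was under 0.1 and its fold change over 1.2. Per1 was the only clock gene called, 1 of 10, against 0.789% of the 17736 genes tested (0.778% in the higher direction). Across the 10 clock genes the median log2 fold change was 0.10, beside -0.00 over all genes tested.

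Per1, the Period repressor known to respond to CREB, was at 55.5 and 46.7 CPM in the fitted 1 hr controls. It was at 79.6, 67.4 and 78.4 CPM in the 1 hr LTP libraries. All LTP libraries were above the controls, including the control left out of the fits, at 60.0 CPM. The log2 fold change was 0.57 (SE 0.0941, 1.48-fold, adjusted p = 0.00749 by edgeR). In pairs from 1 animal the log2 ratio of LTP to control was 0.52, 0.17 and 0.74, higher in LTP in 3 of 3 animals, and the smallest ratio is that of the control left out. The call was kept with that library added (0.48, adjusted p = 0.0328 by edgeR) but not when it was added with animal as a block (0.49, adjusted p = 0.140). It was also lost with 1 model of the 4 groups (0.56, adjusted p = 0.191) and without 1 hr control 3 (0.45, adjusted p = 0.242). Over 16 alternative settings the adjusted p went up to 0.242, and 13 of them called Per1.

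The other Period and Cryptochrome genes did not pass the test at 1 hr. Cry1, a repressor that partners the Period proteins, was at 13.3 and 14.8 CPM in the fitted controls and at 17.6, 20.2 and 16.1 CPM in LTP slices. These groups did not overlap, but the control left out was at 17.9 CPM, inside the LTP range. The log2 fold change of Cry1 was 0.36 (SE 0.114, adjusted p = 0.370 by edgeR), and only leaving out 1 hr LTP 3 called it (0.44, adjusted p = 0.0769, with a range of 0.0769 to 0.994 over its alternatives). Per3 gave 0.23 (SE 0.0913, adjusted p = 0.617), Cry2 0.15 (SE 0.0690, adjusted p = 0.744) and Per2 0.10 (SE 0.0831, adjusted p = 0.933). Per1, Per3, Cry1 and Cry2 had fitted groups that did not overlap, 4 of 10 genes, where 22.6% of all genes tested did so. With the control left out counted, Per1 alone of these 4 remained apart.

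The activators, the REV-ERB repressors and Dbp were not called at 1 hr, and their groups overlapped. Arntl was at 62.3 and 69.8 CPM in the fitted controls and between 65.1 and 65.3 CPM in LTP slices (log2 fold change -0.01, SE 0.0745). Clock gave -0.03 (SE 0.0689), Nr1d1 0.11 (SE 0.108), Nr1d2 0.01 (SE 0.0738) and Dbp -0.17 (SE 0.0924). Dbp was lower in LTP slices in 3 of 3 animals, with log2 ratios of -0.17, -0.21 and -0.16, and its adjusted p was 0.808 by edgeR. Over fits without 1 library its log2 fold change ran from -0.27 to -0.07. Beside these values, all 4 endothelial and all 3 mural cell markers had negative log2 fold changes at 1 hr, and 1 mural marker was called. The summed mural markers were at 21.3 to 27.6 CPM in LTP and 31.0 to 31.1 CPM in the fitted controls, and the endothelial markers at 72.2 to 74.7 and 83.0 to 91.9 CPM. All 4 oligodendrocyte markers had positive log2 fold changes (0.17 to 0.26, none called), with sums of 4985 to 6015 CPM in LTP and 4226 to 5148 CPM in the fitted controls. All 5 microglia markers had negative ones (-0.21 to -0.04, none called). Their part in the clock gene values was not tested.

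At 3 hr, Per1 and Per2 were called, both higher in LTP slices, 2 of 10 clock genes, against 6.60% of the 17508 genes tested in both directions and 5.07% in the higher direction. Across the 10 clock genes the median was 0.05 on the log2 scale, beside -0.00 over all genes tested. The Period genes thus made up all the clock genes called with LTP at either time.

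Per1 was at 62.0, 61.3 and 72.9 CPM in 3 hr controls and at 85.6, 78.8 and 114 CPM in 3 hr LTP slices. The groups did not overlap, and 3 hr LTP 3 stood above the other libraries. The log2 fold change was 0.52 (SE 0.135, 1.43-fold, adjusted p = 0.0749 by edgeR), and the ratio was above 0 in 3 of 3 animals (0.46, 0.36 and 0.65). Without 3 hr LTP 3 it was 0.33 and with GC and length offsets 0.54, and Per1 was called under both.

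Per2, which acts with Per1 to inhibit the Arntl and Clock pair, was at 57.4, 58.3 and 63.5 CPM in 3 hr controls. In 3 hr LTP slices it was at 82.0, 70.0 and 95.2 CPM, all above the controls. The log2 fold change was 0.48 (SE 0.106, 1.39-fold, adjusted p = 0.0474 by edgeR), with ratios of 0.51, 0.26 and 0.58 in 3 of 3 animals. At 1 hr the same gene had been at 54.9, 48.5 and 53.2 CPM in LTP slices and at 52.0 and 46.5 CPM in the fitted controls, which overlap.

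Calls of Per1 and Per2 at 3 hr were both lost when any of the 3 control libraries or 3 hr LTP 1 was left out. The estimates then stayed between 0.47 and 0.61 for Per1 and between 0.45 and 0.53 for Per2, with adjusted p up to 0.282 and 0.214 by edgeR.

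Per3, the Period gene least required for rhythm, was at 43.0, 38.4 and 42.8 CPM in 3 hr controls and at 58.0, 45.2 and 48.9 CPM in LTP slices. The groups did not overlap, and the log2 ratio was above 0 in 3 of 3 animals (0.43, 0.23 and 0.19). The log2 fold change of 0.31 (SE 0.101) missed the threshold, with an adjusted p of 0.133 by edgeR. With animal as a block it was called (0.30, SE 0.0718, adjusted p = 0.0479), as it was with DESeq2 (adjusted p = 0.0696), with 1 model of the 4 groups (0.0853) and without 3 hr LTP 2 (0.0289). With block and offsets together it was not called, since its value of 0.23 (adjusted p = 0.0497 by edgeR) was below the fold threshold. Without 3 hr LTP 1 it was 0.20. The range of its adjusted p over 15 alternatives was 0.0289 to 0.430.

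The remaining clock genes were not called at 3 hr. Cry1 was at 27.9, 26.2 and 27.9 CPM in controls and at 26.7, 26.9 and 26.8 CPM in LTP slices, overlapping groups with a log2 fold change of -0.01 (SE 0.0677). Cry2 gave 0.14 (SE 0.110), Clock 0.04 (SE 0.0567), Nr1d1 0.06 (SE 0.205) and Nr1d2 -0.11 (SE 0.0691). Nr1d1 had the widest error of the 10, since 3 hr LTP 3 was at 30.0 CPM and 3 hr LTP 2 at 16.2 CPM. Arntl was at 59.0, 62.7 and 61.3 CPM in controls and at 54.7, 58.0 and 52.9 CPM in LTP slices, lower in 3 of 3 animals with groups that did not overlap. Its log2 fold change was -0.13 (SE 0.0627, adjusted p = 0.288 by edgeR). Dbp was at 29.2, 27.0 and 31.2 CPM and at 27.7, 20.2 and 24.8 CPM, overlapping, with a log2 fold change of -0.25 (SE 0.119, adjusted p = 0.275). Leaving out 1 library moved Dbp from -0.36 (without 3 hr LTP 1) to -0.13 (without 3 hr LTP 2), and Cry2 from 0.03 (without 3 hr LTP 3) to 0.26 (without 3 hr LTP 2), neither called.

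Per1, Per2 and Per3 (higher) and Arntl (lower) were thus the 4 of 10 genes whose 3 hr groups did not overlap, where 27.0% of all genes tested did so. Summed markers of every cell type listed except choroid plexus overlapped between LTP and control at 3 hr. For choroid plexus, the marker Kl alone was at 22.0 to 22.1 CPM in controls and at 23.0 to 26.7 CPM in LTP slices. All 5 microglia markers had negative (-0.17 to -0.03) and all 4 pyramidal cell markers positive log2 fold changes (0.02 to 0.14) at 3 hr, none called, and their part in the clock gene values was not tested. The 3 hr LTP libraries differed among themselves. Libraries LTP 2 and LTP 3 were at the ends of the 3 hr scores on the first principal component (10.6 and 33.0), and their summed neuronal markers were at 5945 and 7592 CPM, outside the 6331 to 6413 CPM of the controls. Per1, Per2, Cry2, Nr1d1 and Crtc1 were lowest in LTP 2 and highest in LTP 3 among the 3 hr LTP libraries. Per1 and Per2 stayed called without LTP 2 (0.63 and 0.59) and without LTP 3 (0.33 and 0.35).

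**Figure D2:**
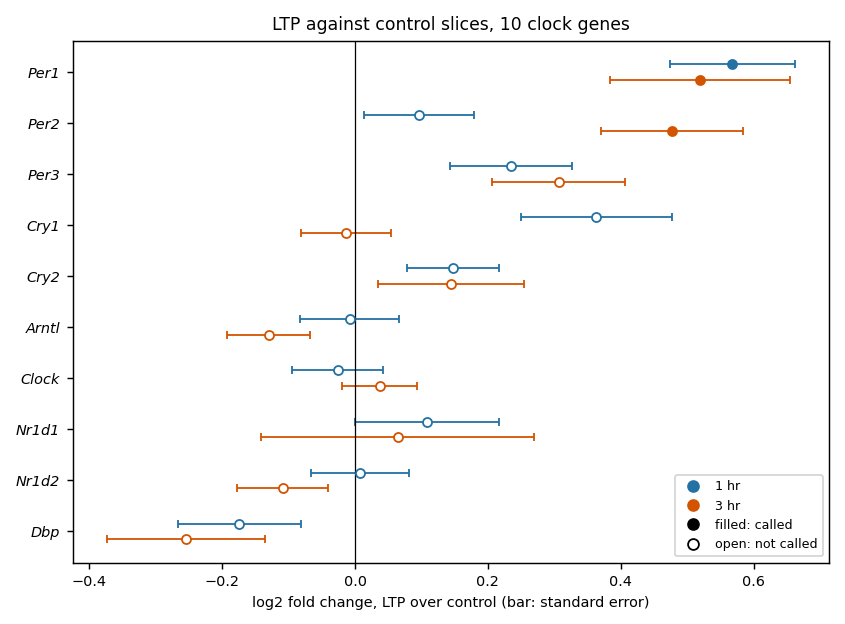
Log2 fold change of LTP over control (horizontal axis, error bars are standard errors) for the 10 clock genes at 1 hr (blue) and 3 hr (orange), with filled points where the gene was called. Per1 was filled at both times (0.57 and 0.52), Per2 only at 3 hr (0.48), and Arntl, Clock and Nr1d2 lay near 0 at 1 hr.

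Whether the LTP effect differed between the times was tested as the effect at 3 hr minus that at 1 hr, in 1 model of the 4 groups. None of the 10 clock genes was called at an adjusted p under 0.1, against 0.0592% of 18584 genes, by edgeR. By DESeq2 and by limma-voom the count was also 0. An unadjusted p under 0.05 by edgeR was found for 2 of the 10, and for 1225 of all 18584 genes. For Per1 the difference was -0.04 (SE 0.189, adjusted p = 0.997). That SE is large beside the effects themselves, so the like estimates at 1 hr and 3 hr do not show equal effects. The 2 genes with an unadjusted p under 0.05 were Per2, with a difference of 0.39 (SE 0.147, adjusted p = 0.649), and Cry1, with -0.37 (SE 0.132, adjusted p = 0.615). That Per2 was called at 3 hr and not at 1 hr is therefore not a difference that passed the test.

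A wider list of 27 genes that act on the clock was examined in the same fits. It held 5 further activators and nuclear receptors, 5 further repressors, 3 D-box factors, 9 kinases and ubiquitin enzymes, 2 outputs and 3 genes of the CREB input. At 1 hr 4 of the 27 were called, all higher in LTP slices, and at 3 hr again 4, all higher. At both times these were Ciart, Bhlhe40, Nfil3 and Sik1. Of all genes tested 0.778% were called higher at 1 hr and 5.07% at 3 hr. The list was chosen with earlier results of these data known, and the study names Ciart, Nfil3 and Sik1 among its top changed genes. The counts are therefore a description, and setting them beside these shares does not test the list. The median log2 fold change of the list was 0.03 at 1 hr and 0.07 at 3 hr, and that of all genes tested was -0.00 at both times.

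Ciart, whose protein inhibits the Arntl and Clock pair, was at 13.8 and 15.3 CPM in the fitted 1 hr controls. It was at 29.2, 25.9 and 27.9 CPM in 1 hr LTP slices, well above every control. The log2 fold change was 0.94 (SE 0.0955, 1.92-fold, adjusted p = 7.21e-05 by edgeR), called under all 16 alternatives. At 3 hr Ciart was at 12.2, 11.5 and 13.8 CPM in controls and at 16.9, 14.5 and 16.3 CPM in LTP slices. The groups again did not overlap, and the log2 fold change was 0.36 (SE 0.0993, adjusted p = 0.0848), with 10 of 15 alternatives calling it. That call was lost when any 1 of the 3 controls, 3 hr LTP 1 or 3 hr LTP 3 was left out, with estimates of 0.30 to 0.45. The difference between the times was -0.57 (SE 0.142, adjusted p = 0.387 by edgeR). It was called with DESeq2 (adjusted p = 0.0550) and with no filter beyond 1 count (0.0844), within a range of 0.0550 to 0.807 over its alternatives.

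Nfil3, a repressor that competes with Dbp for D-box sequences, was at 21.5 and 21.9 CPM in the fitted 1 hr controls and at 39.3, 35.7 and 33.9 CPM in 1 hr LTP slices. At 3 hr it was at 26.8, 28.7 and 27.7 CPM in controls and at 48.6, 46.7 and 46.2 CPM in LTP slices. LTP libraries were far above the controls at both times. The log2 fold changes were 0.75 (SE 0.0887, 1.68-fold, adjusted p = 0.000334 by edgeR) and 0.78 (SE 0.0666, 1.72-fold, adjusted p = 0.00102), called under every alternative run. Dbp and the related activators Tef (-0.08 and -0.11) and Hlf (-0.01 and 0.16) were not called at either time.

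Bhlhe40, an E-box repressor that is also an activity-induced gene, was at 119 and 117 CPM in the fitted 1 hr controls and at 158, 149 and 152 CPM in LTP slices. It was at 131, 129 and 139 CPM in 3 hr controls and at 185, 158 and 196 CPM in LTP slices, with no overlap at either time. The log2 fold changes were 0.38 (SE 0.0664, adjusted p = 0.0114 by edgeR) and 0.44 (SE 0.0836, adjusted p = 0.0273). At 1 hr the call was lost without either fitted control, without LTP 1, or with animal as a block and the control left out added, and at 3 hr without control 1, control 2 or LTP 1.

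Sik1, a kinase that restrains the CREB coactivator Crtc1, was at 16.7 and 19.0 CPM in the fitted 1 hr controls and at 42.6, 38.2 and 34.6 CPM in LTP slices. At 3 hr it was at 27.8, 26.4 and 27.5 CPM in controls and at 63.5, 51.9 and 72.6 CPM in LTP slices. It had the largest log2 fold changes of the 27 genes at each time, 1.12 (SE 0.103, 2.17-fold) and 1.21 (SE 0.114, 2.32-fold), called under every alternative run (adjusted p = 2.20e-05 and 0.00172 by edgeR).

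**Figure D3:**
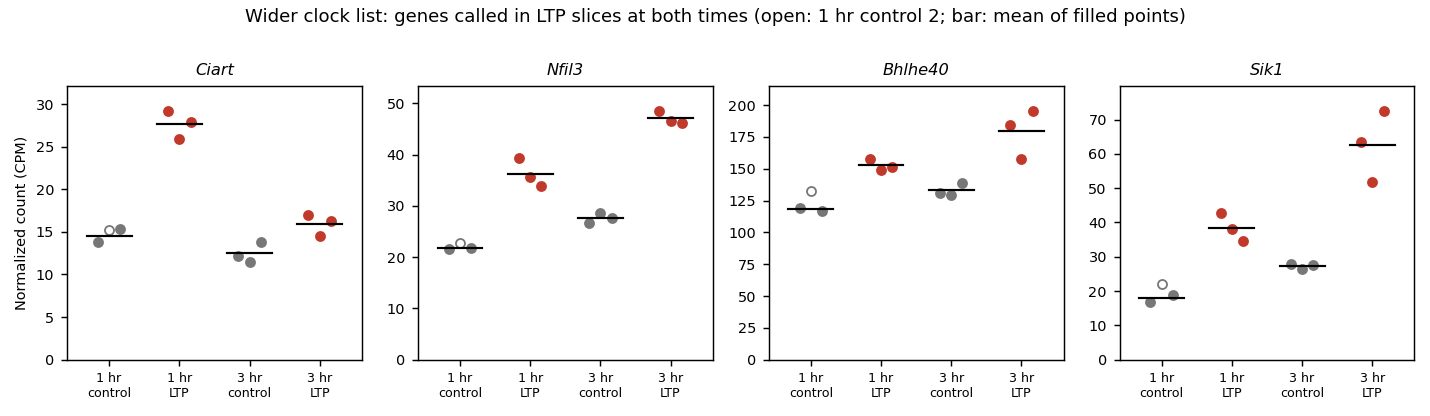
Normalized count (CPM, linear axis from 0) of Ciart, Nfil3, Bhlhe40 and Sik1 in each library, with control in grey, LTP in red, the 1 hr control left out as an open point and bars for means of filled points. LTP libraries lay above control libraries of the same time for all 4 genes, and Ciart was higher in 1 hr LTP (25.9 to 29.2 CPM) than in 3 hr LTP slices (14.5 to 16.9 CPM).

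The other 23 genes of the list were not called with LTP at either time in these fits. They include the alternative activator Npas2 (0.11 and 0.17), the nuclear receptors Rora (0.00 and 0.01) and Rorb (0.06 and 0.23), and the kinases Csnk1d (-0.05 and 0.03) and Csnk1e (-0.06 and -0.03). Cipc, an inhibitor of Clock, had an adjusted p of 0.0551 by edgeR at 3 hr, but its log2 fold change of -0.23 was smaller than the fold threshold. Crtc1 gave 0.41 (SE 0.146, adjusted p = 0.161 by edgeR) at 3 hr and was called under 7 of 15 alternatives, the animal block among them (0.39, adjusted p = 0.0283 by edgeR). Usp2, a deubiquitinating enzyme, gave 0.31 (SE 0.101, adjusted p = 0.135 by edgeR) at 3 hr and was called under 6 of 15, again with the block (0.30, adjusted p = 0.0619 by edgeR). Creb1 (-0.12, SE 0.0709) was called lower at 3 hr under 2 of 15, with GC and length offsets (-0.28, adjusted p = 0.0183 by edgeR) and with block and offsets together, and Rorb and Hlf were each called under 1 of 15.

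**Figure D4:**
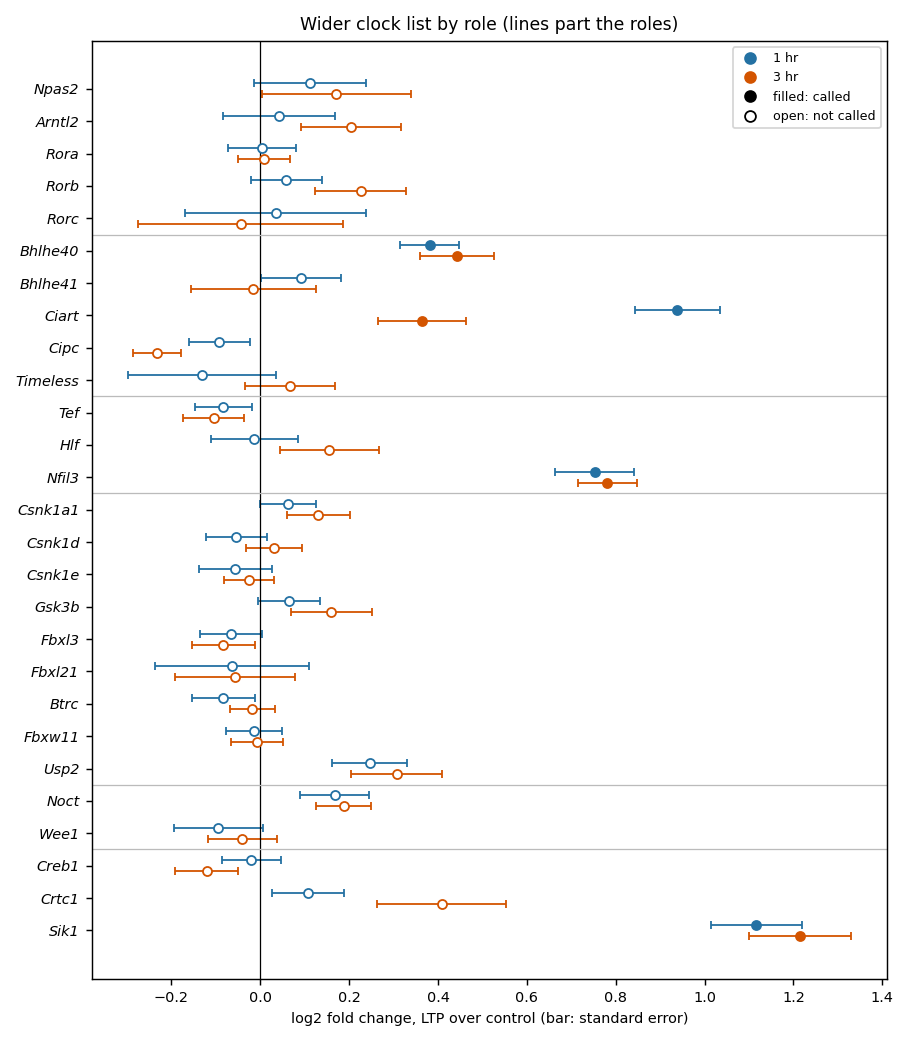
Log2 fold change of LTP over control (horizontal axis, error bars are standard errors) for the 27 genes of the wider list by role, at 1 hr (blue) and 3 hr (orange), filled where called. Bhlhe40, Ciart, Nfil3 and Sik1 are filled at both times and every other gene is open.

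Levels at 3 hr were then set against those at 1 hr, which in control slices follows clock genes without LTP, with time in the chamber, time of day and animal not separable. In control slices Per1, Per3, Cry1 and Cry2 were called, all higher at 3 hr, 4 of 10 clock genes. The background was high, since 32.8% of 18584 genes were called, 16.1% in the higher direction. The 10 clock genes had a median of 0.22 on the log2 scale, beside -0.02 over all genes. Groups did not overlap for 6 of the 10, the Period and Cryptochrome genes (higher) and Clock (lower), where 60.7% of all genes did so.

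Cry1 changed most. It rose from 13.3 and 14.8 CPM in the fitted 1 hr controls to 27.9, 26.2 and 27.9 CPM in 3 hr controls, a log2 fold change of 0.93 (SE 0.1004, 1.91-fold, adjusted p = 6.51e-05 by edgeR). The control left out, at 17.9 CPM, was also below every 3 hr library. In LTP slices Cry1 went from 17.6, 20.2 and 16.1 CPM to 26.7, 26.9 and 26.8 CPM (log2 fold change 0.56, SE 0.0872, adjusted p = 0.000359). Both calls held under all 18 alternatives, with estimates of 0.83 to 1.05 in control and 0.52 to 0.68 in LTP slices.

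Per1, Per2, Per3 and Cry2 also had positive log2 fold changes in both kinds of slice. In control slices Per1 gave 0.33 (SE 0.142, adjusted p = 0.0945), Per3 0.36 (SE 0.109, adjusted p = 0.0236), Cry2 0.38 (SE 0.107, adjusted p = 0.0163) and Per2 0.25 (SE 0.111, adjusted p = 0.102, not called), all by edgeR. Per2 was called there under 12 of 18 alternatives. In LTP slices all 5 Period and Cryptochrome genes were called, 6 of 10 clock genes with Dbp, against 35.9% of all genes (18.6% higher and 17.3% lower). Groups did not overlap for 7 of the 10 clock genes, where 44.9% of all genes did so. Per2 had the largest value there, 0.64 (SE 0.0985, 1.56-fold, adjusted p = 0.000346), with 48.5 to 54.9 CPM at 1 hr and 70.0 to 95.2 CPM at 3 hr. Per3 gave 0.44 (SE 0.0964), Cry2 0.38 (SE 0.0948) and Per1 0.29 (SE 0.125, adjusted p = 0.0868). Per1 lost this last call by limma-voom (0.27, adjusted p = 0.108), without 3 hr LTP 3, where its estimate was 0.12, and without 1 hr LTP 2, where it was 0.24. Between control slices Per1 lost its call without 1 hr control 3 (0.25) or 3 hr control 3 (0.26), and Per3 without 1 hr control 3 (0.35).

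In these fits Dbp was the only clock gene called lower, in LTP slices alone (-0.28, SE 0.112, adjusted p = 0.0647 by edgeR), and in control slices it gave -0.21 (SE 0.123, adjusted p = 0.221). The call in LTP slices was lost without 1 hr LTP 2 (-0.27), 1 hr LTP 3 (-0.19) or 3 hr LTP 2 (-0.16), and its estimate fell just below the fold threshold with scaling to library totals only or with the left-out control added (-0.26 in each). The control slice value was -0.06 without 1 hr control 3. Clock was at 153 to 158 CPM in the fitted 1 hr controls and at 131 to 142 CPM in 3 hr controls. Its log2 fold change of -0.22 (SE 0.0633, adjusted p = 0.0195 by edgeR) was below the fold threshold, as was Arntl in LTP slices (-0.26, SE 0.0624, adjusted p = 0.00568). Nr1d1 (0.19 and 0.16) and Nr1d2 (-0.10 and -0.21) were not called in control or LTP slices. Over fits without 1 library Nr1d1 ran from 0.08 to 0.39 in control slices. Without 3 hr LTP 2, Arntl was called lower (-0.29, adjusted p = 0.00276 by edgeR) and Nr1d1 higher (0.34, adjusted p = 0.0822) in LTP slices.

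The time comparisons changed in fits with offsets for GC content and exon length. With offsets for both, Per1 went to -0.05 in control and -0.08 in LTP slices, and Cry2 to 0.16 in each, and neither was called. Per3 fell to 0.26 in control slices, where it lost its call, and to 0.30 in LTP slices, where it kept it, while Per2 stayed called at 0.47 in LTP slices. Dbp went to -0.67 in control and -0.66 in LTP slices and was called in both. Cry1 barely moved (0.88 and 0.54). The longest annotated transcripts of Dbp, Per1 and Cry2 were 61.6%, 59.4% and 55.6% GC. Those of Nr1d1, Per2, Per3 and Cry1 were 56.8%, 54.4%, 52.4% and 51.6% GC, and those of Arntl, Nr1d2 and Clock 48.2%, 41.8% and 40.9%. The part of GC content in these values was not tested. The same offsets left Per1 at 0.57 with LTP at 1 hr and both Per1 (0.54) and Per2 (0.47) with LTP at 3 hr, all called.

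With the control left out added, Per1 (0.28) and Per3 (0.22) were no longer called between control slices, leaving 2 of 10, against 27.4% of all genes tested in that fit. Cell type markers also moved with time. All 5 microglia markers had negative log2 fold changes in both kinds of slice and 4 of 5 were called, with summed levels of 168 to 197 CPM at 1 hr and 120 to 142 CPM at 3 hr in the fitted libraries. Summed oligodendrocyte markers were at 4226 to 5148 CPM in 1 hr and 5786 to 7115 CPM in 3 hr control slices, and 2 of 4 were called higher in each kind of slice. Of 3 mural markers 2 were called lower in each kind of slice, and their sum in control slices was 31.0 to 31.1 CPM at 1 hr and 20.1 to 20.7 CPM at 3 hr. Of 7 neuronal markers 3 were called lower in control and 2 in LTP slices, with sums of 7032 to 7376 CPM in 1 hr and 6331 to 6413 CPM in 3 hr control slices. In LTP slices the sums of all 3 overlapped between times, at 4985 to 6015 and 5752 to 7051 CPM for oligodendrocytes, 21.3 to 27.6 and 17.3 to 22.1 CPM for mural cells and 6498 to 7416 and 5945 to 7592 CPM for neurons. Of 4 endothelial markers 2 were called lower in control slices and 2 higher in LTP slices. In each kind of slice 1 of 4 astrocyte markers was called lower and 1 of 4 pyramidal cell markers higher, and no dentate granule cell or choroid plexus marker was called. Their part in the clock gene values was not tested.

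**Figure D5:**
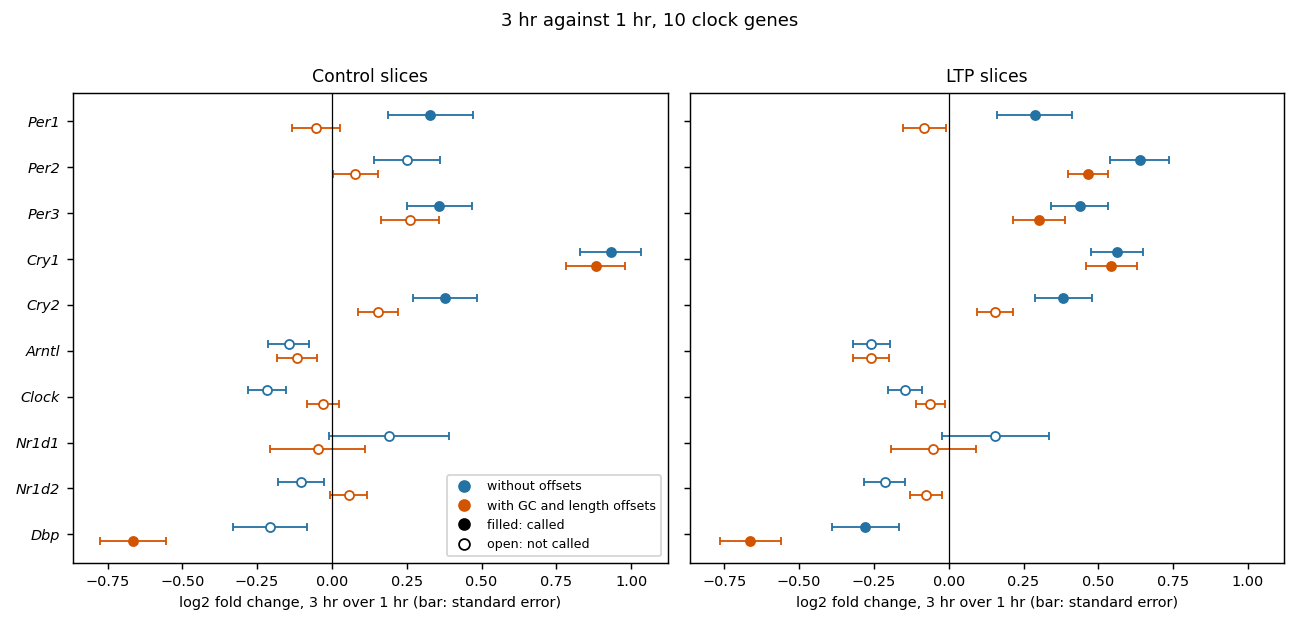
Log2 fold change of 3 hr over 1 hr (horizontal axis, error bars are standard errors) for the 10 clock genes in control slices (left) and LTP slices (right), without offsets (blue) and with offsets for GC content and exon length (orange), filled where called. Cry1 stays filled throughout, Per1 moves from 0.33 to -0.05 in control slices, and Dbp moves from -0.21 to -0.67.

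Of the 27 genes of the wider list 6 were called between control slices, against 32.8% of all genes tested. The 6 genes with the smallest p, of which Fbxw11 was not called, were Creb1, the cyclic AMP response factor (-0.37, SE 0.0701), the clock kinase Csnk1d (0.33, SE 0.0682), Sik1 (0.58, SE 0.130), Nfil3 (0.32, SE 0.0794), the ubiquitin ligase subunit Fbxw11 (0.24, SE 0.0608, below the fold threshold) and Crtc1 (0.50, SE 0.144), with adjusted p from 0.00179 to 0.0187 by edgeR. The other gene called was Bhlhe41, a repressor related to Bhlhe40 (0.47, SE 0.140, adjusted p = 0.0205 by edgeR). With GC and length offsets Creb1 (-0.16), Csnk1d (0.17), Nfil3 (0.22) and Crtc1 (0.25) lost their calls, while Fbxw11 (0.29), Rora (0.31) and Ciart (-0.28) were called. Fbxw11 was called under 8 of 18 alternatives. The call of Bhlhe41 was lost without 1 hr control 1 (0.46, adjusted p = 0.103 by edgeR) and that of Crtc1 without 1 hr control 3 (0.50).

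In LTP slices 8 of the 27 were called, against 35.9% of all genes tested. Ciart (-0.82, SE 0.0936) and Creb1 (-0.46, SE 0.0634) were lower. Crtc1 (0.81, SE 0.128), Sik1 (0.69, SE 0.111), Csnk1d (0.43, SE 0.0606), Bhlhe41 (0.37, SE 0.124), Nfil3 (0.36, SE 0.0690) and Timeless (0.32, SE 0.109) were higher, and adjusted p of the 8 ran from 5.19e-05 to 0.0316 by edgeR. Timeless lost its call with offsets (0.14) and Bhlhe41 without 3 hr LTP 3 (0.23).

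As a description, genes were ranked by how closely their log2 levels followed each clock gene over the 12 libraries, among 14184 genes that averaged 1 CPM or more. Libraries of 1 time point share a table and those of 1 group a treatment, and correlations within a group were not computed. Per1 was followed most closely by Kdm6b (Pearson r = 0.96), Lsmem1 (0.95) and Bhlhe40 (0.95), Per2 by Hectd4 (0.99), Ubr4 (0.99) and Celsr2 (0.99), and Cry1 by Socs3 (0.98), Dll1 (0.97) and Slc7a6 (0.97). Close to Per3 were Chfr (0.98) and Gmip (0.95), to Cry2 Tnrc18 (0.99), Klhl29 (0.98) and Lmtk3 (0.98), and to Arntl Nipsnap2 (0.95), Oscp1 (0.95) and Rxylt1 (0.95). Clock was followed by Mrip-ps (0.96), Brcc3 (0.95) and Taok1 (0.95), Nr1d1 by Zc3h4, Deaf1 and Phf12 (0.92 each), Nr1d2 by Rbm34, Mtln and Twistnb (0.92 each), and Dbp by Phkg2 (0.94), Ppp1r1a (0.94) and Vcpkmt (0.93). Among the clock genes themselves, Per2 and Arntl ran most opposite (r = -0.93) and Per2 and Cry2 most alike (r = 0.91) over the 12 libraries.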

How the data were processed

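Total RNA of 12 hippocampal slice libraries was sequenced with a stranded kit after removal of ribosomal RNA. Per the study's methods, reads were aligned to mm10 with STAR, and the authors deposited whole-number counts per gene, unnormalized, 1 table per time point; their tool per the processing notes is DESeq2. All columns were matched to labels. Of 41091 gene identifiers 40217 matched GENCODE M21. Library totals of 37118382 to 50815001 counts leave a floor of 3 counts at 0.0590 to 0.0808 CPM.

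The clock genes, the wider list and the marker lists were chosen with earlier results of these data known. Genes named are the 10 members, genes of the wider list called with LTP, the 6 of smallest p between controls, and the 3 closest followers of each member by Pearson correlation of log2(CPM + 0.5), of which 1 is not reported here; Cipc, Crtc1, Usp2, Bhlhe41, Timeless, Tef, Hlf, Npas2, Rora, Rorb, Csnk1e and the uncalled values were added after their values were seen. Counts were tested with edgeR 4.0.16 (TMM, filterByExpr, quasi-likelihood test, R 4.3.3) within each time point for LTP, and in 1 model of the 4 groups (11 libraries) for time and for the difference of effects. CPM used TMM factors over 12 libraries. Calls needed an adjusted p under 0.1 (Benjamini-Hochberg, all genes tested) and a fold change over 1.2, or for the difference of effects the adjusted p alone. In simulated data 100 genes were changed per fold size. There 2-fold changes were recovered in 77% (1 hr) and 81% (3 hr) and 1.5-fold changes in 61% and 62%. Unchanged genes called were 24 of 17439 and 17 of 17320. At both times, and more so at 1 hr, these made up more of the calls than the threshold of 0.1 allows for. Alternatives were DESeq2 1.42.0, limma-voom 3.58.1, other scalings, no filter, and GC and length offsets (smoothing splines, 5 df). Further ones were an animal block, the left-out control added, and each library left out.

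Control and LTP libraries of 1 number come from the same animal within a time point, per the labels. Deviations of such pairs from their group means correlated at -0.01, -0.24 and 0.08 at 1 hr and at 0.07, 0.01 and 0.29 at 3 hr across genes. Replicates are separate animals. Promoter windows are those of RefSeq on GRCm38.p6, read for 9 of 10 members.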

Additional observations from a re-analysis of the deposited data

Results flagged for a closer look

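The 1 hr control library left out of the fits (replicate 2) held 6 of the 10 clock genes above both fitted 1 hr controls, where 40.7% of the 14185 genes averaging 1 CPM or more lay above both and 38.2% below both. These were Per1 at 60.0 CPM, Per2 at 54.9 CPM, Per3 at 43.4 CPM, Cry1 at 17.9 CPM, Cry2 at 119 CPM and Nr1d1 at 21.8 CPM. In the fitted controls the same genes reached at most 55.5, 52.0, 32.7, 14.8, 104 and 20.3 CPM. Arntl, Clock and Nr1d2 were below both fitted controls in this library and Dbp lay between them. Its place between the 1 hr and 3 hr libraries on the first principal component is given above. The groups hold 3 libraries at most, so no single library was tested as an outlier.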

How the results depend on the processing

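Over the alternatives run, most log2 fold changes of the clock genes kept their direction and their call. With LTP at 1 hr the count of called clock genes went from 1 to 0 with 1 model of the 4 groups and with a replicate block that included the left-out control, and ranged from 0 to 2 over fits without 1 library. With LTP at 3 hr it ranged from 0 to 3 without 1 library. With the replicate block it was 1 at 1 hr and 3 at 3 hr (206 and 1662 of all genes). At 1 hr that block has no control beside LTP 2, so it rests on the pairs of animals 1 and 3. Among member calls the block changed only Per3 at 3 hr. With the left-out control added (chosen after seeing the data) it also changed Per1 at 1 hr, and no other. No paired analysis was possible because the animals were taken to differ for 3 hr against 1 hr. Between control slices the count went from 4 to 2 with GC and length offsets (25.2% of all genes called, against 32.8%) and to 2 with the left-out control (27.4%), and ranged from 2 to 5 without 1 library (21.9% to 34.8% of all genes). In LTP slices it ranged from 4 to 7 (29.5% to 40.7%).

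Sign reversals were mostly of values near 0. With the left-out control, Arntl and Clock at 1 hr became 0.0293 and 0.0293, with the block added 0.0317 and 0.0304, and the Per1 difference between times became 0.0306 and 0.0142. Nr1d2 at 1 hr became -0.0235 with offsets, -0.00294 with 1 model, -0.0495 with the block and -0.0461 with block and offsets. With offsets Cry1 at 3 hr became 0.00226 (0.00318 with the block too) and Clock -0.113 (-0.114). With offsets, 3 hr against 1 hr became -0.0531 for Per1, -0.0483 for Nr1d1 and 0.0554 for Nr1d2 in control slices, and -0.0811 for Per1 and -0.0516 for Nr1d1 in LTP slices. Without 1 library, 1 hr values ranged from -0.0892 to 0.0745 (Arntl), -0.0658 to 0.0065 (Clock), -0.0347 to 0.262 (Nr1d1) and -0.0495 to 0.051 (Nr1d2), and 3 hr values from -0.0466 to 0.00726 (Cry1) and -0.221 to 0.252 (Nr1d1). Nr1d1 in LTP slices ranged from -0.115 to 0.341, and the differences between times from -0.236 to 0.0507 (Per1) and -0.0486 to 0.135 (Per3). The cause of these shifts was not tested.

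Over all genes, 140 called at 1 hr became 347 without a filter, 317 with the block and offsets and 69 to 344 without 1 library, and 1155 at 3 hr became 1791 with the block and offsets and 228 to 2170 without 1 library. The 11 differences between times became 80 by DESeq2 and 102 without a filter. Every clock gene held at least 514 counts in each library. What limits the precision was not tested.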
